A study of Homo sapiens with 4 samples.

Results

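MicroRNAs (miRNAs) numbered from 1000 up to, but not including, 3000 were followed in H661 cells after exposure to the histone deacetylase inhibitor entinostat. H661 is a permanent cell line that was grown from a human large cell carcinoma of the lung. A row of the count table belonged to this set when the number after its miR prefix lay in that range. Rows of miR-1185, miR-1193, miR-1197, miR-1224 to miR-1229, miR-1236 to miR-1238, miR-1246, miR-1248, miR-1260, miR-1275, miR-1290 and miR-1291 were left out by the rule. The rule selected 66 of 826 rows, and it used no measured value. They carried 54 hairpin names, of which 12 had both arms listed, and their numbers ran from 1178 to 2682.

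Small RNA was sequenced in 4 libraries. In 2 of them the cells had received the solvent dimethyl sulfoxide (DMSO), and in the other 2 they had received 2.5 µM entinostat, for 8 h in each case. No genetic change is named in the labels, and the cells of all libraries are 1 line grown in 1 medium, RPMI1640 with fetal bovine serum. The design addressed how miRNA levels differ between the treatments. Whether replicates are separate cultures is not stated in the labels. The spread that each p-value is set against may therefore be technical in part or in whole.

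A mature miRNA is cut from a hairpin transcript by the Microprocessor (DROSHA with DGCR8) and then by DICER, and 1 arm of the duplex is loaded into an Argonaute protein. Bases 2 to 8, the seed, pair with target messenger RNAs. The number in a miRNA name records the order of discovery, so it implies no common family. Entries with high numbers were mostly found by deep sequencing, are often low in abundance, and many lie inside protein-coding genes. Entinostat inhibits class I histone deacetylases, enzymes that remove acetyl groups from chromatin.

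Sequences of some members named below are given here from RefSeq (GRCh38.p14), 5′ to 3′, with the seed in capitals. RefSeq held 56 of the 66 mature names, and the other 10 are named without a sequence. After adjustment 0 of 401 tested rows were called, and so no member was. The first set shows the 4 of 27 tested members whose unadjusted p lay under 0.05, all of them lower with entinostat. Of all tested rows, 3.74% were lower and 2.99% higher at that level.
miR-1914-5p: cCCUGUGCccggcccacuucug
miR-1307-3p: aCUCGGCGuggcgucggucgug
miR-1180-3p: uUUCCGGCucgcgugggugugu
miR-1908-5p: cGGCGGGGacggcgauugguc

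The next set shows the 3 members for which both entinostat libraries lay above both DMSO libraries. They were 11.1% of the tested members, against 20.7% of all tested rows.
miR-1257: aGUGAAUGauggguucugacc
miR-1269b: cUGGACUGagccaugcuacugg
miR-2277-5p: aGCGCGGGcugagcgcugccaguc

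The last set shows the tested members that share a seed with another tested row, each beside that row.
miR-1271-5p: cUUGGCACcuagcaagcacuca
miR-96-5p: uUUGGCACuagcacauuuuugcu
miR-2682-5p: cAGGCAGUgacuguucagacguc
miR-449c-5p: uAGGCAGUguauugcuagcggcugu
miR-1268a: cGGGCGUGgugguggggg
miR-1268b: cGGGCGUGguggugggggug

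These sequences were rich in G and C. The median GC content was 59.1% over the 56 members with a sequence, against 47.8% over the 421 rows numbered below 1000 (let-7 included) and 59.1% over the 236 rows numbered 3000 and above. GC content reached 60% or more in 26 of the 56 members (46.4%), in 14.0% of the rows below 1000 and in 43.6% of the rows from 3000 up. Among the members it ranged from 31.8% for miR-1278 to 95.2% for miR-1908-3p. The median length was 22 bases in each of the 3 classes.

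Most hairpins of the set lie inside protein-coding genes. In GENCODE release 29 (GRCh38), all 54 hairpin names were found. The hairpin, or the first copy where a name has several, was in an intron of a protein-coding gene on the same strand for 32 names. For 12 names it overlapped an exon of such a gene on the same strand, for 4 it was intergenic, and the other 6 were antisense to a gene or inside a non-coding one. The hosts include DNMT3A, a DNA methyltransferase (miR-1301), JMJD1C, a histone demethylase homolog (miR-1296), and FADS1, a fatty acid desaturase (miR-1908). The hairpin of miR-1306 overlaps an exon of DGCR8 itself, and that of miR-2467 lies in an intron of the deacetylase gene HDAC4.

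Library totals ran from 547875 to 938559 miRNA counts. A true count of 0 allowed between 3.20 and 5.48 counts per 1000000 counts of a library (CPM), for counting error alone. The labels name no molecular identifiers, so PCR copies were not separated. No value of 1 occurred in any library, and the smallest count above 0 was 2. A row listed at 0 may therefore have had 1 count, for which the limit would be higher than for a true 0, and detection here means 2 or more counts. Reference miRNAs listed for epithelial, blood, muscle, liver and neuronal cells were rare apart from miR-486. The 4 epithelial rows summed to 56.5 and 41.0 CPM, unscaled, with DMSO and to 76.7 and 59.8 CPM with entinostat, without overlap, from 23 to 53 counts a library, with miR-141, miR-200a and miR-429 not among the rows. In the blood list, miR-142, miR-144, miR-223 and miR-451a were not among the rows either, and the miR-486 row held 186 to 243 CPM. The muscle rows summed to at most 12.8 CPM, and miR-122 and miR-124 to at most 5.33 and 2.66 CPM.

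Detection of the set was patchy. Of the 66 members, 36 had counts in all 4 libraries (54.5%), 6 in 3 libraries, 4 in 2 and 20 in a single library. The corresponding share was 76.0% for the rows below 1000 and 34.8% for the rows from 3000 up. Of the 20 members seen in a single library, 16 had a count of 2 there, and the highest count was 7, for miR-1538 in entinostat replicate 2. These single-library members fell to DMSO replicate 1 in 6 cases, DMSO replicate 2 in 1, entinostat replicate 1 in 4 and entinostat replicate 2 in 9.

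The number of members seen in a library followed its depth within each treatment. It was 51 and 41 with DMSO and 45 and 53 with entinostat. Thinned to the smallest total, 547875 counts, the expected number with at least 1 count was 49.5 and 41.0 with DMSO and 45.0 and 52.2 with entinostat. These values overlapped (entinostat minus DMSO 3.36, two-sided exact permutation test p = 0.667), and the difference turned to -0.88 without DMSO replicate 2 and to -0.24 without entinostat replicate 2. With at least 2 counts, as the table itself lists, the expected numbers were 44.5 and 40.8 against 45.0 and 47.7 (exact permutation p = 0.333). Both entinostat values then lay above both DMSO values, and this p is the smallest that 2 libraries against 2 allow. The margin was narrow, 45.0 against 44.5, and the same numbers were not computed for all rows. At 10 or more counts, the numbers were 29 and 28 against 26 and 28.

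The members with the greatest imbalance in detection all had low counts. With DMSO 8 members were seen that had no count with entinostat, and 14 showed the opposite. The same numbers were not computed for all rows, so this lean cannot be judged against the whole series. Entinostat replicate 2 alone held 9 of the 20 members seen in a single library. Over the whole series, 687 and 596 rows had counts with DMSO, and 589 and 682 rows had counts with entinostat. In both libraries of 1 treatment and neither of the other, only miR-2355-5p was seen with DMSO alone (2 and 4 counts) and only miR-1299 with entinostat treatment alone (counts of 2 and 3). A difference of this size was not detectable at this depth.

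Over the 4 libraries the set held 1.64% of all counts, in 7.99% of the rows. Its share was 1.74% in DMSO replicate 1 (exact 95% interval 1.71 to 1.77%) and 1.69% in DMSO replicate 2 (1.66 to 1.72%). With entinostat it was 1.55% (1.52 to 1.58%) and 1.53% (1.502 to 1.558%). Both entinostat libraries were below both DMSO libraries, and the intervals, which cover counting error only, did not meet. The means were 1.71 ± 0.0353% and 1.54 ± 0.0137% (SD, n = 2), a difference of -0.18 percentage points. The two-sided exact permutation test gave p = 0.333, the smallest value that 2 libraries against 2 allow. Without its most abundant member, miR-1307-3p, the set held 0.960% and 0.962% with DMSO and 0.887% and 0.892% with entinostat.

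**Figure D1:**
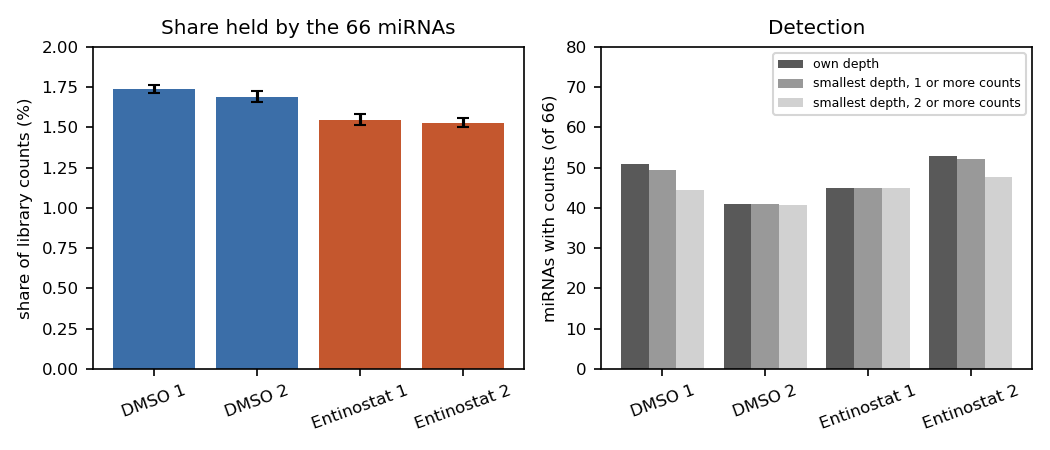
Left, share of each library's counts (%) held by the 66 miRNAs, with exact 95% intervals of counting error; right, number of the 66 miRNAs with counts in each library, at its own depth and as computed for the smallest depth with 1 or 2 counts required. The share is 1.74% and 1.69% with DMSO and 1.55% and 1.53% with entinostat. The numbers detected overlap between the treatments at each library's own depth and at the smallest depth with 1 count required. With 2 counts required they do not overlap, at 44.5 and 40.8 with DMSO and 45.0 and 47.7 with entinostat.

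A few members made up most of this share. Pooled over libraries, miR-1307-3p alone held 43.3% of the set's counts, the first 3 members (with miR-1180-3p and miR-1303) held 70.0%, the first 5 held 80.9% and the first 10 held 92.1%. In the whole table miR-1307-3p ranked 25 by total count, miR-1180-3p 59, miR-1303 67 and miR-1301-3p 89. Levels below are CPM on library sizes adjusted with TMM factors, the trimmed mean of M-values. Recovery in small RNA libraries can differ between sequences, so the order of members is an order of counts. Of the 66 members, 4 had a mean level of 1000 CPM or more and 10 lay between 100 and 1000 CPM. A further 13 were tested at lower levels, and the 39 untested members had 2 to 43 counts over all libraries (median 5).

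**Figure D2:**
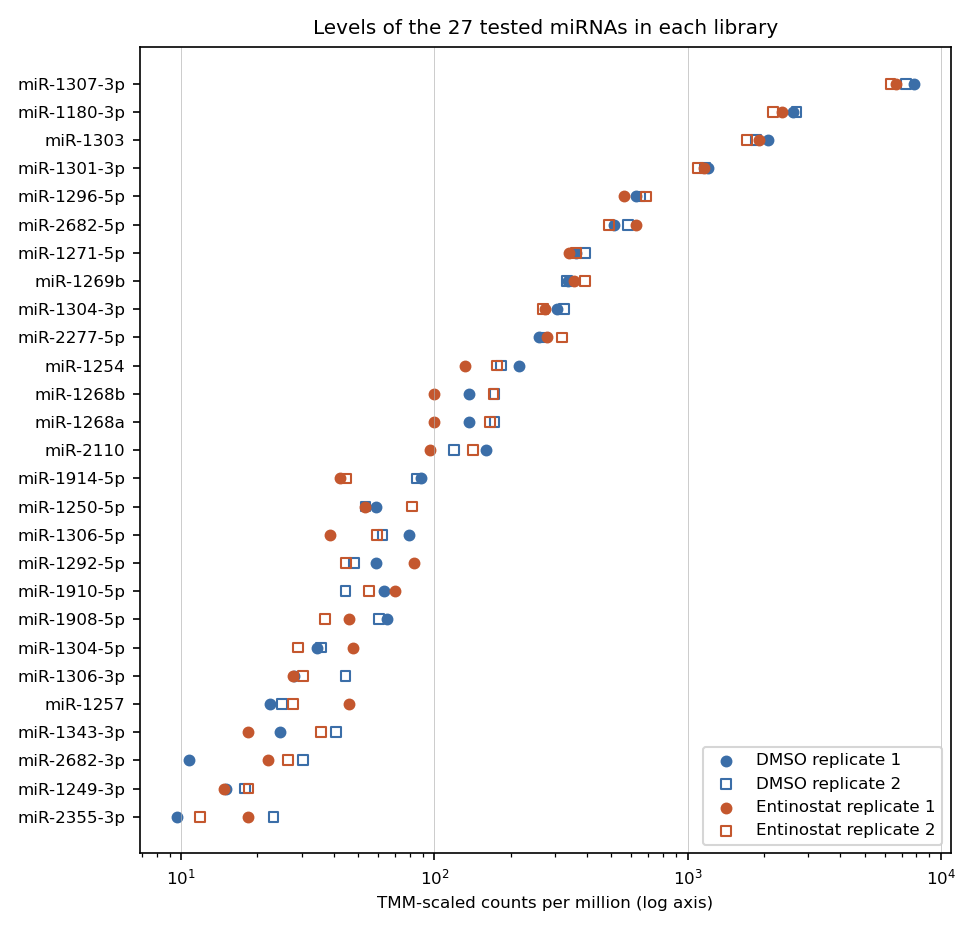
TMM-scaled CPM (log axis) of the 27 tested miRNAs in each library, in order of mean level; blue marks are DMSO and orange marks entinostat, circles replicate 1 and squares replicate 2. Mean levels run from 15.8 CPM for miR-2355-3p to 7032 CPM for miR-1307-3p, and the libraries spread more widely at the low end.

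No member passed the threshold between the treatments. The edgeR quasi-likelihood test with Benjamini-Hochberg adjustment over all tested rows called 0 of 27 tested members and 0 of 401 rows (0% of the table). At an unadjusted p under 0.05 it gave 4 members lower and 0 higher, where 3.74% of all tested rows were lower and 2.99% higher. DESeq2, run without the filter on 66 members and 826 rows, called 0 members. At an unadjusted p under 0.05 it gave 3 members and 11 of all rows. With limma-voom 0 members were called, and 4 members and 31 of 401 rows were at that level. The edgeR likelihood ratio test called 1 member, miR-1914-5p, and 4 of 401 rows. With upper quartile factors 1 member, miR-1914-5p, had an unadjusted p under 0.05, beside 44 of 401 rows. The share is a description, since the set was proposed with results of these data known.

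As a group the tested members lay slightly lower with entinostat. The log2 fold change (entinostat over DMSO) was below 0 for 17 members and above 0 for 10, against 48.1% below and 51.9% above over all tested rows. The median was -0.10 for the members and 0.00466 for all rows. With upper quartile factors it was 0.02 for the members and 0.12 for all rows. The members' distance from the table was -0.10 under either scaling. Scaling factors shift all rows by nearly the same amount, so this distance could hardly have differed. Without DMSO replicate 2 that distance was -0.02, and without DMSO replicate 1 it was -0.18. The rows numbered 3000 and above leaned the same way, with 32 of 56 tested rows below 0 and a median of -0.07, while the rows below 1000 had 140 of 309 below 0 and a median of 0.02. The difference between these classes was not tested, and the median lay below 0 in both later-numbered classes. The sum of the 4 epithelial rows given above was also higher in both entinostat libraries, but single rows differed in direction. Among them the log2 fold change was 0.57 for miR-200c-3p and -0.46 for miR-203a-3p. The part of such rows in the values of the set was not tested. Both entinostat libraries lay below both DMSO libraries for 9 members (20% of all tested rows did so) and above them for 3 (20.7% of all tested rows).

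The negative values were most frequent among the abundant members. All 4 members of 1000 CPM or more lay below 0 (median -0.17, range -0.22 to -0.07). With upper quartile factors, however, miR-1301-3p was at 0.04 and miR-1303 at -0.0065. Over the 97 rows of 1000 CPM or more in the table, 46 lay below 0 and the median was 0.00431. Of the 10 members between 100 and 1000 CPM, 7 lay below 0 (median -0.12), and of the 13 tested members under 100 CPM, 6 did (median 0.06). With upper quartile factors miR-1271-5p and miR-1296-5p, of the middle group, also turned positive, at 0.02 and 0.09.

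**Figure D3:**
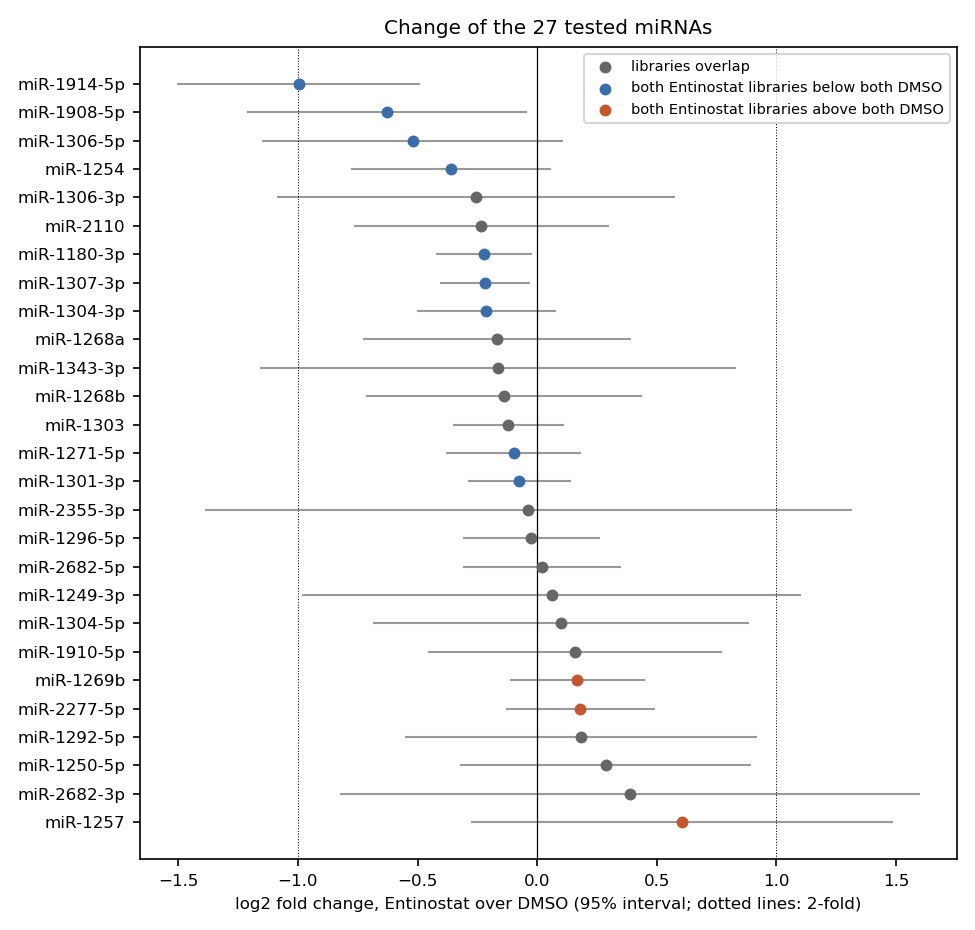
Log2 fold change (entinostat over DMSO) of the 27 tested miRNAs with 95% intervals from the edgeR fit; blue points have both entinostat libraries below both DMSO libraries, orange points above, grey points overlap, and dotted lines mark 2-fold. The values run from -0.996 for miR-1914-5p to 0.61 for miR-1257, and no member passed an adjusted p of 0.05.

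The member with the lowest p was miR-1914-5p, whose sequence heads the first set above. Its level was 88.8 and 85.5 CPM with DMSO and 42.3 and 44.8 CPM with entinostat, from 83, 48, 23 and 34 reads counted. The replicates of each treatment were close to each other, and the treatments did not overlap. The log2 fold change was -0.996 (95% interval -1.504 to -0.488), a fold of 0.501, with an edgeR adjusted p of 0.316. Its value stayed between -1.05 and -0.87 over all alternatives tried. The edgeR likelihood ratio test gave an adjusted p of 0.0194, and the adjusted p of the other alternatives ran up to 0.999. The hairpin overlaps an exon of UCKL1, a uridine-cytidine kinase-like gene (chromosome 20, 63941465 to 63941544, minus strand). The opposite arm, miR-1914-3p, had 4 counts in DMSO replicate 1 and 0 in the other libraries.

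The most abundant member, miR-1307-3p, was at 7837 and 7284 CPM with DMSO and 6678 and 6330 CPM with entinostat. Both entinostat values were below both DMSO values. The log2 fold change was -0.22 (-0.40 to -0.03), a fold of 0.860 (edgeR adjusted p = 0.595). This value was -0.10 with upper quartile factors and -0.09 with the GC trend of each library removed, and no alternative turned its sign. The hairpin overlaps an exon of ATP5MD, which encodes a small subunit of the mitochondrial ATP synthase (chromosome 10, 103394253 to 103394401, minus strand).

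Next in abundance, miR-1180-3p was at 2610 and 2692 CPM with DMSO and 2365 and 2182 CPM with entinostat. Again the treatments did not overlap. The log2 fold change was -0.22 (-0.42 to -0.02), a fold of 0.857 (edgeR adjusted p = 0.595), or -0.11 with upper quartile factors. Its hairpin is in an intron of B9D1, a gene of the ciliary transition zone (chromosome 17, 19344506 to 19344574, minus strand).

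The fourth member of that set, miR-1908-5p, was at 65.3 and 60.6 CPM with DMSO and 46.0 and 36.9 CPM with entinostat, from 61, 34, 25 and 28 counts. The treatments did not overlap, at counts where sampling noise is large. The log2 fold change was -0.63 (-1.21 to -0.04; edgeR adjusted p = 0.595). It overlaps an exon of FADS1 (chromosome 11, 61815161 to 61815240, minus strand). The 3p arm had 4, 0, 3 and 4 counts in the same order of libraries.

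The other abundant members kept closer to their DMSO levels. Values for miR-1303 were 2075 and 1860 CPM with DMSO and 1909 and 1719 CPM with entinostat, and the treatments overlapped (log2 fold change -0.12, 95% interval -0.35 to 0.11). Its hairpin is intergenic (chromosome 5, 154685776 to 154685861, plus strand). For miR-1301-3p, from an intron of DNMT3A (chromosome 2, 25328640 to 25328721, minus strand), the levels were 1200 and 1170 against 1158 and 1097 CPM (-0.07, -0.29 to 0.14). The level of miR-1296-5p, from an intron of JMJD1C, was 625 and 652 against 563 and 685 CPM (-0.02, -0.31 to 0.26). Leaving out a library gave -0.22 to -0.05 for miR-1303 and -0.13 to -0.04 for miR-1301-3p. These 3 intervals of the full data lay inside a 1.5-fold change, so larger differences were outside the 95% interval of each.

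Over all tested members the 95% interval lay inside 1.5-fold for 10 of 27 and inside 2-fold for 18 of 27. Of all tested rows, 51.6% and 73.6% did so. Without entinostat replicate 2 the second count fell to 11. The median standard error was 0.25 log2 units for the members and 0.18 for all tested rows. The members whose interval reached beyond 2-fold were of low abundance, such as miR-2355-3p, miR-2682-3p and miR-1249-3p. They include miR-1914-5p and miR-1908-5p, with standard errors of 0.22 and 0.26 near that median and log2 fold changes of -0.996 and -0.63.

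On the higher side no member had an unadjusted p under 0.05. The level of miR-1257, whose hairpin overlaps an exon of the TFIID subunit gene TAF4, was 22.5 and 24.9 CPM with DMSO and 46.0 and 27.7 CPM with entinostat. The treatments did not overlap, but the entinostat libraries lay far apart. The log2 fold change was 0.61 (-0.28 to 1.49; edgeR adjusted p = 0.638), and it was 0.22 without entinostat replicate 1, or 0.96 when replicate 2 was left out instead. For miR-1269b, antisense to an intron of ARHGAP44, the levels were 336 and 333 against 357 and 393 CPM (0.17, -0.11 to 0.45). For miR-2277-5p, over an exon of FAM172A, they were 258 and 273 against 278 and 319 CPM (0.18, -0.13 to 0.49). In both, the 2 entinostat libraries lay just above the DMSO libraries, and the edgeR adjusted p was 0.678. Without entinostat replicate 2 the values were 0.088 for miR-1269b and 0.067 for miR-2277-5p.

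Next by p on the higher side came miR-1250-5p, from an intron of AATK, at 58.9 and 53.4 against 53.4 and 81.7 CPM (log2 fold change 0.29, -0.32 to 0.89). A single entinostat library set it apart, and without entinostat replicate 2 the value was -0.09. The last of the 5 was miR-2682-3p, at 10.7 and 30.3 against 22.1 and 26.4 CPM (0.39, -0.82 to 1.60). It was -0.32 without DMSO replicate 1. On the lower side, miR-1254, with 1 of its annotated hairpins in an intron of CCAR1, was the fifth by p. Its levels were 215 and 183 against 133 and 177 CPM (-0.36, -0.78 to 0.06; edgeR adjusted p = 0.595). Entinostat replicate 1 was the lowest library, and without it the value was -0.20, against -0.61 without entinostat replicate 2.

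Members that share a seed with another tested row were compared with that row. The seed UUGGCAC is common to miR-1271-5p and miR-96-5p. The first, from an intron of ARL10, was at 363 and 394 CPM with DMSO and 341 and 363 CPM with entinostat (log2 fold change -0.10, -0.38 to 0.18). The second, a member of a sensory-organ cluster, was at 115 and 105 against 90.2 and 97.5 CPM (-0.23, -0.65 to 0.19). Neither passed the threshold. The entinostat libraries lay below the DMSO libraries for both, but for miR-1271-5p this held only after TMM scaling. Its unscaled share of counts was 0.0361% in DMSO replicate 1 and 0.0365% in entinostat replicate 2, which overlap. In these cells the member of the set had the more counts, 1020 against 289 in all.

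The seed AGGCAGU is common to miR-2682-5p and miR-449c-5p, of the miR-449 family that is known from multiciliated cells. The level of miR-2682-5p was 514 and 582 CPM with DMSO and 624 and 489 CPM with entinostat. The treatments overlapped, and the log2 fold change was 0.02 (-0.31 to 0.35). For miR-449c-5p the levels were 43.9 and 57.0 against 51.5 and 31.6 CPM (-0.29, -1.03 to 0.45), also overlapping. The hairpin of miR-2682 lies 828 bases from that of miR-137, a miRNA known from neurons, in the same host transcript MIR137HG (chromosome 1, 98045242 to 98045351, minus strand). The host-mate miR-137 was much rarer, at 22.5 and 28.5 against 22.1 and 21.1 CPM (-0.21, -1.10 to 0.67).

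The names miR-1268a and miR-1268b cannot be told apart in these data. The 18 bases of miR-1268a are contained in the 20 bases of miR-1268b with 0 edits, as the sequences above show. Their counts were 128, 97 and 54 for both in the first 3 libraries, and 126 and 130 in entinostat replicate 2. Among the 56 members with a sequence, compared with the 729 rows that have one, no other lay within 2 edits of another row. The 10 members without a sequence were not compared. Levels of miR-1268a were 137 and 173 against 99.4 and 166 CPM (log2 fold change -0.17, -0.73 to 0.39), or 0.11 without entinostat replicate 1. With the pair taken as 1 row, 0 members were called. Elsewhere both names are counted, so nearly the same reads enter as 2 members below 0 in counts of direction.

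Arms of 1 hairpin differed widely in abundance. For miR-1307 the 3p arm held 99.8% of the counts of both arms, with 14, 7, 8 and 14 counts for the 5p arm. In miR-1304, whose hairpin overlaps an exon of TAF1D, the 3p arm held 89.9% and 90.1% with DMSO and 85.1% and 90.3% with entinostat. In miR-2682 the 3p arm held 2.04% and 4.94% against 3.42% and 5.12%. The arms of miR-1306 were closest among the hairpins with both arms tested, with 26.0% and 41.7% on the 3p arm with DMSO and 41.7% and 33.8% with entinostat. In each of these hairpins the arm shares of the treatments overlapped, except for miR-1307, where they ran from 99.71 to 99.78% with entinostat and from 99.81 to 99.83% with DMSO.

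By level, miR-1304-3p was at 305 and 326 CPM with DMSO and 274 and 269 CPM with entinostat, without overlap (log2 fold change -0.21, -0.50 to 0.08; edgeR adjusted p = 0.635). Its partner miR-1304-5p had 32 and 20 counts against 26 and 22 (0.10, -0.69 to 0.89). The DGCR8 product miR-1306-5p was at 79.2 and 62.3 against 38.7 and 59.3 CPM (-0.52, -1.15 to 0.11). Its entinostat libraries were below its DMSO libraries, by a narrow margin in replicate 2. The value was -0.30 without entinostat replicate 1, -0.33 without DMSO replicate 1 and -0.90 with entinostat replicate 2 left out. The other arm, miR-1306-3p, was at 27.8 and 44.5 against 27.6 and 30.3 CPM (-0.25, -1.09 to 0.58), and it turned to 0.04 without DMSO replicate 2. The last member above 100 CPM, miR-2110 of CCDC186, was at 161 and 119 against 95.7 and 142 CPM (-0.23, -0.76 to 0.30), with overlap, and it was 0.0079 without DMSO replicate 1. The other 5 tested members, miR-1249-3p, miR-1292-5p, miR-1343-3p, miR-1910-5p and miR-2355-3p, had mean levels of 15.8 to 58.7 CPM and log2 fold changes of -0.16 to 0.18. The treatments overlapped for each of them.

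Repeat-derived members were followed as a list recalled without a database, which includes miR-1254, miR-1268, miR-1273, miR-1285, miR-1303 and miR-1304. It held 11 rows, of which 6 were tested. Of these, 5 lay below 0 and 1 above (median -0.15), and 0 were called. The 5 include both miR-1268a and miR-1268b, which cannot be told apart. The untested miR-1285-5p and miR-1285-3p were, with miR-1307-5p, the untested members with the most counts. For the first, the DMSO libraries held 11 and 6 counts and the entinostat libraries 4 and 20, and the second had 22 and 5 against 6 and 6. Replicates differed as much as treatments for both.

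By host, 11 tested members came from hairpins over an exon of a protein-coding gene on the same strand, and 7 of them lay below 0 (median -0.22, range -0.996 to 0.61). Another 11 came from introns on the same strand, and 8 lay below 0 (median -0.07, range -0.36 to 0.29). None of these was called. Members of 1 hairpin share their precursor and are not independent. Among the exonic members 57.9% were tested, against 30.6% of the intronic members.

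Base composition moved with the change, in the set and in the whole table. Over 361 tested rows with a sequence, GC content and log2 fold change had a Pearson correlation of -0.16 and a Spearman correlation of -0.24. This is a description across miRNAs that share libraries. Of the 82 rows with 60% GC or more, 58 lay below 0 (median -0.11), and of the 279 others 116 did (median 0.04). In the set, 10 of 15 members with 60% GC or more lay below 0 (median -0.17), and 4 of 9 others did (median 0.02). Libraries of 1 treatment also differed along GC content, with a Spearman correlation of -0.26 for DMSO replicate 2 over replicate 1 and 0.18 for entinostat replicate 2 over replicate 1. Over the 24 tested members with a sequence, the Spearman correlation of GC content was -0.37 with the treatment change, -0.03 with the DMSO replicate difference and 0.50 with the entinostat replicate difference. With a smooth GC trend removed from each library, the median of the tested members was -0.05, against 0.01 for all rows. In that fit 1 member, miR-1914-5p (-0.88), was lower and 1, miR-2277-5p (0.30), was higher at an unadjusted p under 0.05, and 0 were called. The part of base composition in the lower share of the set was not tested further.

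**Figure D4:**
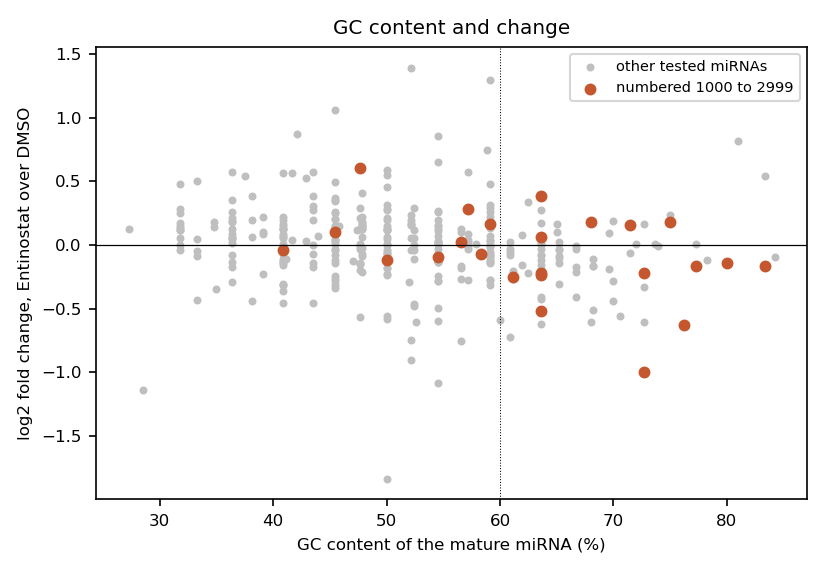
GC content of the mature sequence (%) against log2 fold change (entinostat over DMSO) for 361 tested miRNAs, with the 24 from the set in orange and the others in grey; the dotted line marks 60% GC. Of the 15 orange points at 60% or more, 10 lie below 0, and of the 9 others, 4 do.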

How the data were processed

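The authors deposited whole-number counts per mature miRNA name and a CPM table, per the file headers 1 column per library. The deposited CPM differed from CPM recomputed from the count table by at most 4.92e-05 and was used only for that check. The submitters' processing notes name bcl2fastq 2.18. For the aligner, the counting tool and the genome, names are not given in the sources used. No column was left unused.

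Counts were scaled by TMM and tested with edgeR 4.0.16 (quasi-likelihood test, treatment only; R 4.3.3) on all 826 rows. Rows were kept by filterByExpr (minimum count 10, total 15), leaving 401 tested and 425 not. The threshold was an adjusted p of 0.05 (Benjamini-Hochberg). Each row's standard error was derived from its log2 fold change and the F statistic of the test. Intervals were computed from that standard error. Intervals of shares are Clopper-Pearson at 95%, and 3 counts served as the limit for a row at 0. Alternatives used limma 3.58.1 and DESeq2 1.42.0, other scalings and filters, a replicate block and each library left out. SciPy 1.17.1 gave exact permutation tests.

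Named members were those of 100 CPM or more, the 5 of lowest p in each direction, those sharing a seed with a tested row, hairpins with both arms tested, the 3 untested members with most counts, and 9 miRNAs by name, of which miR-1269a is not analysed here. Other rows are named as seed or host partners. The members, lists and tests were chosen with earlier results of these data known. Removal of a GC trend (loess), the requirement of 2 counts, crossed blocks and merging miR-1268a with miR-1268b were added after seeing the data.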

Additional observations from a re-analysis of the deposited data

How the results depend on the processing

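The count of called members was 0 in the main test and under every alternative tried except the edgeR likelihood ratio test (1 member and 4 rows of the table); over all rows 5 were called without entinostat replicate 1, and leaving out any library gave 0 to 5. Members lower at an unadjusted p under 0.05 numbered 4, but 1 with upper quartile factors, 1 with the GC trend removed (where 1 was higher) and 1 to 6 with a library left out. Members with an interval inside 2-fold numbered 11 to 17 with a library left out, against 18. The labels do not say whether libraries of equal replicate number share a culture or day. The correlation of their deviations was -0.12, which does not settle this with 2 libraries a treatment. With the replicate block 1 member was lower at an unadjusted p under 0.05 and 0 were called. With crossed numbers 3 members had an unadjusted p under 0.05, and 0 members and 0 rows were called. The cause of these moves was not tested.

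The difference in members detected, 3.36, was -0.50 at 5 or more counts and -0.88 to 7.60 with a library left out. The lower share of counts kept its direction under each alternative, from -0.31 to -0.07 percentage points. Leaving out a library could not have turned it, because both entinostat libraries were below both DMSO libraries. Of 378 values of single members under 14 alternatives, 24 had the opposite sign, in 16 of 27 members. Upper quartile factors turned miR-1271-5p (0.016), miR-1296-5p (0.091), miR-1301-3p (0.040) and miR-2355-3p (0.078), and limma-voom turned miR-2355-3p (0.089). Leaving out a library gave ranges of -0.14 to 0.17 for miR-1249-3p, -0.090 to 0.51 for miR-1250-5p, -0.62 to 0.11 for miR-1268a, -0.62 to 0.16 for miR-1268b, -0.29 to 0.60 for miR-1292-5p, -0.18 to 0.091 for miR-1296-5p, -0.28 to 0.45 for miR-1304-5p, -0.62 to 0.037 for miR-1306-3p, -0.77 to 0.16 for miR-1343-3p, -0.056 to 0.46 for miR-1910-5p, -0.58 to 0.0079 for miR-2110, -0.66 to 0.58 for miR-2355-3p, -0.32 to 1.15 for miR-2682-3p and -0.17 to 0.19 for miR-2682-5p. With 2 libraries a treatment and members mostly under 100 CPM, changes under 2-fold were often not detectable.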
